A study of Rattus norvegicus with 6 samples.

Results

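The 9 genes described here encode enzymes and a transporter of glutathione synthesis and recycling. They are Gclc, Gclm, Gss and Slc7a11, which serve synthesis, Gsr and Ggt1, which serve recycling and turnover, and the glutathione peroxidases Gpx1, Gpx3 and Gpx4. They were chosen by name, and their probes were found by matching the RefSeq transcript given for each probe to the gene's current or older rat symbol. All 9 genes were found, among 31582 genes or sequences tested, and they had 15 of the 61657 non-control probes of the array. Of the 15, 13 were bright enough to be tested, and the 2 that were not belong to Slc7a11.

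The samples were kidney cortex RNA from 6 male Sprague-Dawley (Crl:CD(SD)) rats, an outbred stock, purchased at 5 weeks of age. The 3 control rats, C1 to C3, were given corn oil, and the 3 treated rats, B1 to B3, were given 2,2-bis(bromomethyl)-1,3-propanediol (BBMP), a brominated flame retardant, at 1000 mg/kg/day, both for 4 weeks. The results therefore cover males, 1 dose and 1 time. Each animal had 1 one-colour Agilent array, and the design text calls the animals of a group biological replicates.

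Glutathione is a tripeptide that cells use to reduce peroxides and to bind electrophiles. Its synthesis starts with glutamate cysteine ligase, made of the catalytic subunit Gclc and the modifier subunit Gclm, and ends with glutathione synthetase, Gss. Peroxidases oxidise glutathione, Gsr returns the oxidised form to the reduced one, and Ggt1 on the brush border of the proximal tubule splits glutathione outside the cell. Kidney cortex is rich in this brush-border step and is the main source of the secreted peroxidase Gpx3 in blood plasma.

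A level below is the background-subtracted signal of a probe divided by the 75th percentile of its array. Levels of different probes cannot be set against each other. A difference is BBMP minus control on the log2 scale, and it was called higher or lower where limma's two-sided adjusted p, by the Benjamini-Hochberg method over all 42657 tested probes, was under 0.05. By that rule 17.8% of all tested probes were called, 10.3% higher and 7.46% lower, and the median difference of all tested probes was 0.05. In bulk tissue, fewer cells of a type and less RNA per cell cannot be told apart.

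The scanner software marked 67.2% to 72.7% of an array's probes as well above background, and no probe of the 9 genes was saturated. The 75th percentile used for scaling was 943 to 950 in control and 1244 to 1259 in BBMP samples. The control animals shared 1 slide and 1 scan and the treated animals shared another, so treatment cannot be told apart from slide or scan. Array row 1 of the slides held C3 and all 3 treated animals, and row 2 held C1 and C2. To check the tissue label, 12 proximal tubule markers were read. All 12 passed the filter and were tested, with a summed level of 3345 to 3569 in control and 3284 to 3402 in BBMP samples, and none of the 12 was called (2 had an unadjusted p under 0.05, limma). Columns of the authors' deposited table matched scanner files of other animals in the same group, so the replicate numbers of individual animals are uncertain, while the groups are not touched.

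Among the 13 tested probes of the 9 genes, 1 was called higher, a probe of Gpx1, and none was called lower by limma, with 4 at an unadjusted p under 0.05, against 36.5% of all tested probes. With 1 probe per gene, 1 of 9 genes was called higher, against 10.2% of all 31582 genes or sequences tested. The share among the 9 genes was therefore near that of the whole array. The groups did not overlap at 4 of the 13 probes, with BBMP above control at both Gpx1 probes and 1 Gpx4 probe and below control at the Gpx3 probe. Among all tested probes the groups did not overlap in 43.4%, with BBMP above control in 25.5% and below it in 17.9%. The median difference was 0.29 over the 4 genes of synthesis and 0.06 over the other 5, against 0.05 over all genes or sequences. The widest spread lay between animals of the same group, since the levels of Gclc and Gclm differed several-fold between control rats.

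**Figure D1:**
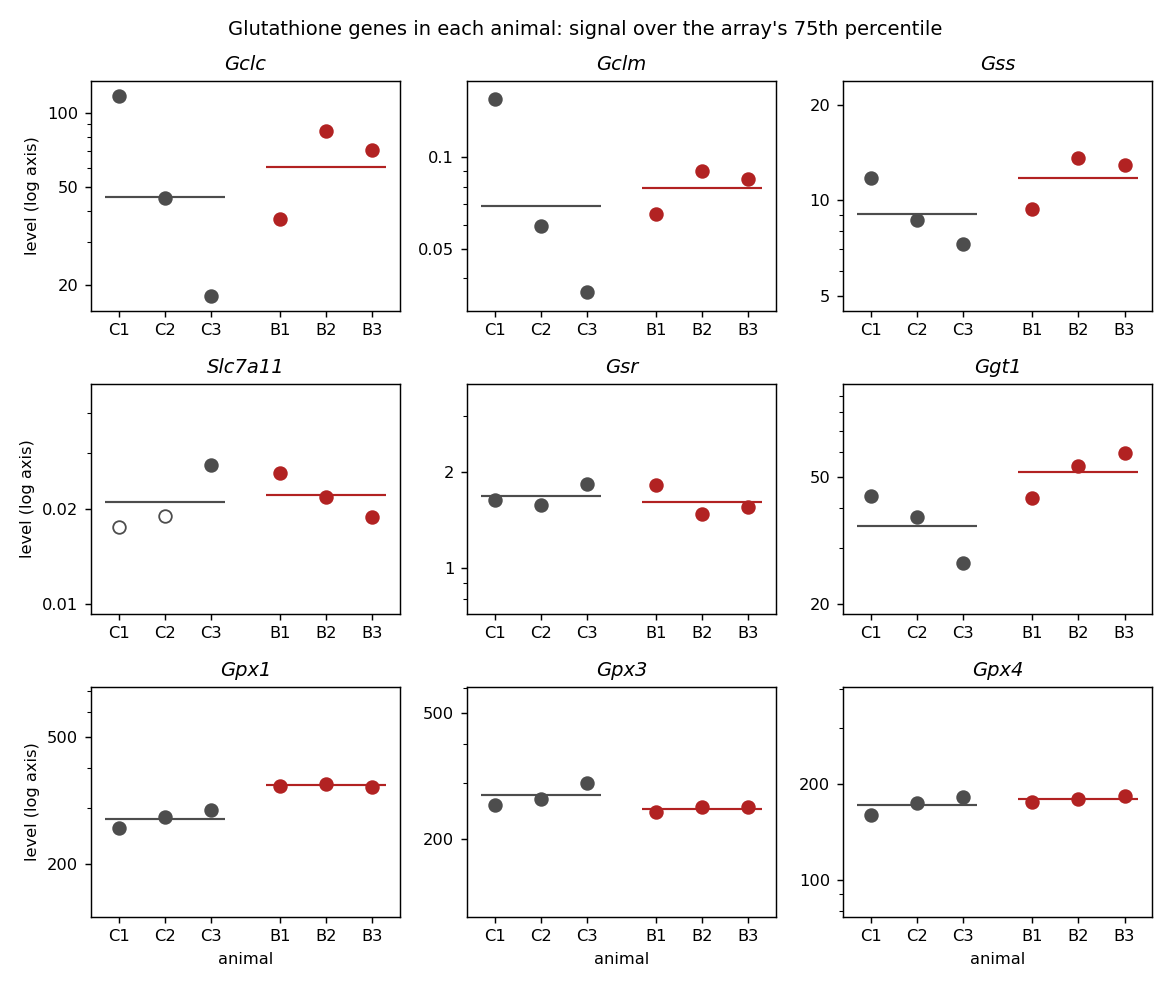
Level of each gene in each animal (signal over the array's 75th percentile, log axis whose range differs between panels), for the brightest probe of each gene, with control animals C1 to C3 in grey and BBMP animals B1 to B3 in red. Lines are geometric means of the 3 animals, and open circles are values not well above background. Gclc runs from 18.1 in C3 to 117 in C1, while the 3 BBMP values of Gpx1, 349 to 357, lie above the control values, 259 to 294.

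Gclc, the catalytic subunit of glutamate cysteine ligase, had 2 tested probes. At probe A_64_P056846 the levels were 117 in C1, 45.0 in C2 and 18.1 in C3, and 37.1 in B1, 84.5 in B2 and 70.4 in B3. C1 was the highest and C3 the lowest of all 6 animals, so the control group enclosed the treated one. The highest control level was 6.51 times the lowest, against 2.28 times in the BBMP group. On the log2 scale the control mean was 5.51 ± 1.35 and the BBMP mean 5.92 ± 0.62 (SD, n = 3 each). The control SD was larger than that of 99.5% of all tested probes and the BBMP SD larger than that of 97.7%, where the median SD over probes was 0.12 and 0.11. The difference between groups was 0.40 ± 0.71 (SE), with a 95% interval from -1.35 to 2.15 and a limma adjusted p of 0.715. As a ratio, the interval runs from 0.394 to 4.45, so these 6 arrays do not settle whether the group means differ.

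The second Gclc probe, A_44_P228874, showed the same order of animals. Its levels were 5.94 in C1, 1.94 in C2 and 0.704 in C3, and 1.45 in B1, 3.69 in B2 and 3.06 in B3. Across the 6 arrays the log2 values of both probes had a Pearson correlation of 0.998, so the spread was not particular to 1 probe. The difference was 0.34 ± 0.81 (SE, limma adjusted p = 0.793).

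Gclm, the modifier subunit that raises the affinity of the ligase for glutamate, had 1 probe. The levels were 0.156 in C1, 0.0593 in C2 and 0.0358 in C3, and 0.0651 in B1, 0.0903 in B2 and 0.0847 in B3. C1 was again the highest and C3 the lowest animal, and the groups overlapped. The control maximum was 4.34 times the minimum, and the BBMP maximum 1.39 times. The log2 difference was 0.20 ± 0.53 (SE), with an interval from -1.11 to 1.50 (limma adjusted p = 0.817). Without C3, which had the lowest level of both subunits, the Gclc difference became -0.27 and the Gclm difference -0.28. With slide row 1 alone, where C3 is the single control animal, they became 1.74 and 1.15, values of 1 animal against 3 that are given without a test.

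Gclm is a textbook target of the transcription factor NRF2, which binds antioxidant response elements. Its promoter is printed because, among the 8 genes with a promoter in the RefSeq table for GRCr8, it was the one in which the core of that element, TGACNNNGC, was found on either strand in the 250 bases before the start. That core was present in 10.1% of 33469 promoters of the same length. In the sequence, chr2:213031885-213032134 on the plus strand, capitals mark 1 match to the core on the minus strand, 172 to 164 bases before the start, and 1 Sp1 GC box (GGGCGG, either strand, no overlap with the core), a motif held by 30.5% of promoters.
Gclm promoter: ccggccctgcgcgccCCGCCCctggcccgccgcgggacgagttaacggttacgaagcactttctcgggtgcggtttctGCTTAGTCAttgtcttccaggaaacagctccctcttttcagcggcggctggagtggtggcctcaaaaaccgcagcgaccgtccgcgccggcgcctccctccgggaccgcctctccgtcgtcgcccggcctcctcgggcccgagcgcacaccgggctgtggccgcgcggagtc
The match is a description of these letters and does not show that a factor binds there.

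Gss, glutathione synthetase, joins glycine to the dipeptide made by the ligase. The levels were 11.7 in C1, 8.67 in C2 and 7.27 in C3, and 9.39 in B1, 13.5 in B2 and 12.9 in B3. B2 and B3 stood above all control animals, and B1 lay within the control range. The spread was smaller than in the ligase subunits, with a maximum over minimum of 1.61 in control and 1.44 in BBMP samples. The log2 difference of 0.38 ± 0.22 (SE), with an interval from -0.16 to 0.93, did not pass the threshold (limma adjusted p = 0.263).

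Slc7a11, the cystine importer of the xCT exchanger, was at the limit of detection in this tissue. Of its 3 probes, A_64_P041166 and A_44_P112201 were not well above background on any of the 6 arrays. The third, A_42_P576446, was not well above background in C1 (0.0175) and C2 (0.019), and was above it in C3 (0.0274), B1 (0.026), B2 (0.0218) and B3 (0.0189). The groups overlapped, and the log2 difference was 0.07 ± 0.20 (SE, limma adjusted p = 0.821). The sign of this difference depended on the processing. With normexp background correction, an alternative that replaces the processed signal, it was -0.34 with an adjusted p of 0.0129, and with quantile normalization it was -0.07.

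Gsr, glutathione reductase, regenerates reduced glutathione with NADPH. The levels were 1.64 in C1, 1.58 in C2 and 1.84 in C3, and 1.83 in B1, 1.48 in B2 and 1.56 in B3. The groups overlapped, and the animals differed little. The log2 difference was -0.06 ± 0.11 (SE), with an interval from -0.33 to 0.20 (limma adjusted p = 0.705).

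Ggt1, gamma-glutamyl transferase, cleaves glutathione at the brush border and carries out a step toward mercapturates. The levels were 43.5 in C1, 37.3 in C2 and 26.8 in C3, and 43.0 in B1, 54.4 in B2 and 59.7 in B3. B2 and B3 were above every control animal, while B1 was just under C1. The difference of 0.56 ± 0.21 (SE) was the largest among the 13 probes. Its interval ran from 0.04 to 1.08 and its unadjusted p was 0.0398, but it did not pass after adjustment (limma adjusted p = 0.118). Without C3 the difference was 0.36 and without C1 it was 0.71.

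**Figure D2:**
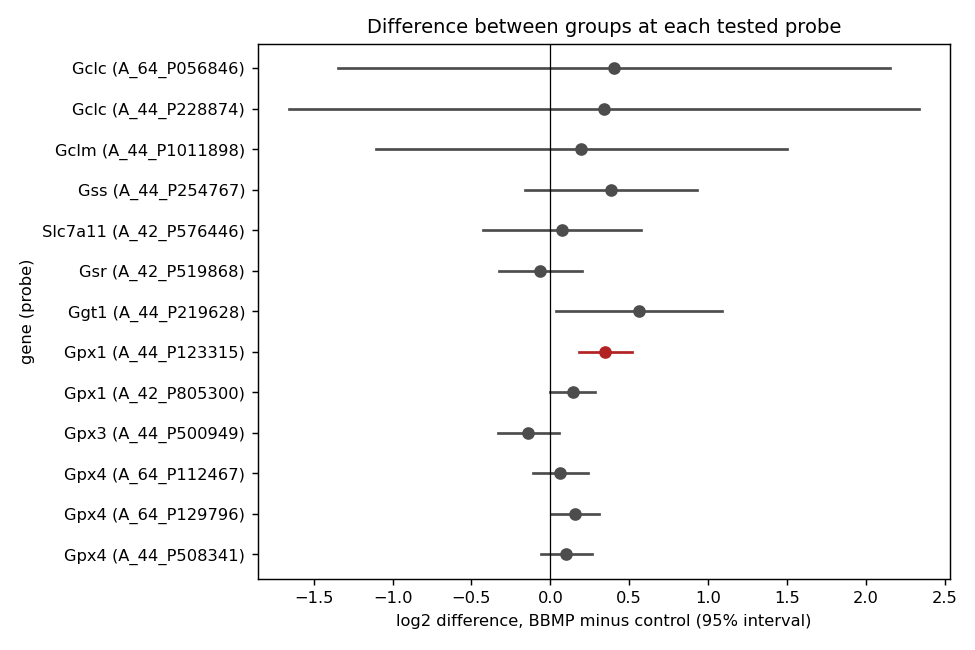
Log2 difference, BBMP minus control, at each of the 13 tested probes of the 9 genes, with 95% intervals from the limma fit (n = 3 animals per group). The probe called at an adjusted p under 0.05, Gpx1 at 0.35, is in red, and the widest intervals belong to Gclc and Gclm.

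Gpx1, the cytosolic glutathione peroxidase, was the gene called higher in BBMP samples. At probe A_44_P123315 the levels were 259 in C1, 280 in C2 and 294 in C3, and 352 in B1, 357 in B2 and 349 in B3. All 3 treated animals were above all 3 control animals, and the treated animals lay close together. The log2 mean was 8.12 ± 0.09 in the control group and 8.46 ± 0.02 in the BBMP group (SD, n = 3 each). The difference of 0.35 ± 0.07 (SE) is a ratio of 1.27, with an interval from 1.13 to 1.43 (limma adjusted p = 0.0264, higher in 3 of 3 animals).

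The second Gpx1 probe, A_42_P805300, gave a smaller difference. The levels were 279 in C1, 293 in C2 and 301 in C3, and 323 in B1, 322 in B2 and 318 in B3. The groups again did not overlap, but the difference of 0.14 ± 0.06 (SE), a ratio of 1.10, did not pass the threshold (limma adjusted p = 0.137). It passed with normexp (0.21, limma adjusted p = 0.034) and with trend and robust moderation (limma adjusted p = 0.0412). The call at the first probe held under the other scalings and background correction tried, with differences from 0.27 with median scaling to 0.43 with normexp. It was lost without any 1 of C1, C2, B1, B2 or B3, with limma adjusted p between 0.0671 and 0.0846, and it was kept without C3. Within slide row 1, which holds C3 as its single control animal, the difference was 0.26. With 1 control animal, that fit cannot decide whether the call holds within the row.

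The summed level of 5 tested adrenal markers was 2.91 to 3.28 in control and 4.0 to 4.33 in BBMP samples. Of the 5, 2 were called higher. Cyp11b1 and Star, which define the adrenal cortex, were not tested, because neither was well above background in every animal of a group. The summed level of 6 markers of medulla, papilla and urothelium was 1.31 to 1.4 in control and 1.68 to 1.93 in BBMP samples. Of the 6, 2 were called higher. These sums do not overlap between groups, like the levels of Gpx1, and their part in the Gpx1 result was not tested.

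The Gpx1 promoter is printed because this gene carried the call between groups. It lies at chr8:117905212-117905461 of GRCr8, on the plus strand, and capitals mark 1 Sp1 GC box, 65 to 60 bases before the start. The antioxidant response element core was not among the letters of this window.
Gpx1 promoter: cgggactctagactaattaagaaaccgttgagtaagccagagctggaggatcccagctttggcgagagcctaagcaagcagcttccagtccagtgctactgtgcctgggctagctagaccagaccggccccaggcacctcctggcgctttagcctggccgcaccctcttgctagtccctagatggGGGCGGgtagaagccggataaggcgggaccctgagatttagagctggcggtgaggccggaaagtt

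Gpx3, the secreted peroxidase, was lower in the treated animals, but not past the threshold. The levels were 257 in C1, 268 in C2 and 301 in C3, and 243 in B1, 253 in B2 and 253 in B3. Each treated animal was below each control animal, with B2, B3 and C1 close together. The log2 difference was -0.14 ± 0.08 (SE), with an interval from -0.33 to 0.05 (limma adjusted p = 0.254).

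Gpx4, which reduces lipid hydroperoxides within membranes, had 3 tested probes, 1 of them, A_44_P508341, for another transcript of the gene. At A_64_P112467 the levels were 160 in C1, 174 in C2 and 183 in C3, and 176 in B1, 180 in B2 and 184 in B3. The groups overlapped there, with a difference of 0.06 ± 0.07 (SE, limma adjusted p = 0.551). At A_64_P129796 the levels were 48.6, 48.2 and 51.6 in C1 to C3 and 53.2, 55.0 and 57.0 in B1 to B3.
The groups did not overlap at this probe, and its difference of 0.15 ± 0.06 (SE) did not pass the threshold (limma adjusted p = 0.132). The probe for the other transcript gave 0.10 ± 0.07 (SE, limma adjusted p = 0.316). All 3 probes had positive differences, but at A_64_P112467 the sign turned under normexp (-0.02) and median scaling (-0.01). Under normexp A_64_P129796 was called higher (0.20, limma adjusted p = 0.0437).

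Gclc, Gclm, Gss and Ggt1 had similar orders of animals, but no correlation between 2 of the 9 genes passed after adjustment. Correlations were computed over the 6 animals for the 28 pairs of the 8 genes measured well above background in all of them, with exact two-sided permutation tests adjusted over the 28. Gclc and Gclm had a Pearson r of 0.965 (n = 6, exact p = 0.00833, adjusted p = 0.117) and a Spearman rho of 0.943 (exact p = 0.0167, adjusted p = 0.233). Without C1 and C3, the animals farthest from the median of Gclc, r was 0.921. Among deviations from the group means, which leave out the difference between groups, r was 0.967.

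Gclc and Gss had an r of 0.89 (n = 6, exact p = 0.0222, adjusted p = 0.207) and a rho of 0.771 (exact p = 0.103, adjusted p = 0.411). Without the same 2 animals r was 0.933, and among deviations from the group means it was 0.961. Gss and Ggt1 had an r of 0.938 (n = 6, exact p = 0.00417, adjusted p = 0.117) and a rho of 0.943 (exact p = 0.0167, adjusted p = 0.233), and r was 0.859 without C3 and B2. None of the 28 relations passed after adjustment. Gclc and Gpx1 had an r of -0.03 over all animals (n = 6, exact p = 0.958, adjusted p = 0.994). Among deviations from the group means it was -0.868, a value that was not tested. Within the control group Gpx1 ran from C1 to C3 in the opposite order to Gclc, while within the BBMP group r was 0.308.

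The order of animals in Gclc was C1, B2, B3, C2, B1 and C3, which alternates between groups. It was set against the summed levels of 10 marker lists for cell types that a cortex sample can hold. The summed level of the thick ascending limb and distal tubule markers was 485, 392 and 269 in C1 to C3 and 322, 443 and 415 in B1 to B3. This is the same order of animals as in Gclc, with an r of 0.98 (n = 6, exact p = 0.00139, adjusted over 10 relations p = 0.0139) and a rho of 1.0 (exact p = 0.00278, adjusted p = 0.0278). Without C1 and C3 r was 0.915, and among deviations from the group means it was 0.985. The relation had been noticed in these data before it was tested, so its p is no independent evidence.

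The list had 8 markers, of which 6 were tested. Slc12a1 was not matched by name, and Pvalb was not tested, because it was not well above background in every animal of a group. Uromodulin, Umod, a protein secreted by the thick ascending limb, made up most of the sum, at 450, 348 and 232 in C1 to C3 and 285, 409 and 382 in B1 to B3. No other tested member of the list shared the full order. Cldn16 came nearest, highest in C1 and lowest in C3, with an r of 0.798 with Gclc. Its levels were 1.09, 0.686 and 0.435 in C1 to C3 and 0.583, 0.648 and 0.546 in B1 to B3. Calb1, a calcium-binding protein of the distal tubule, was at 5.39, 6.42 and 8.34 in C1 to C3 and at 4.92, 3.68 and 4.2 in B1 to B3. Kcnj1, a potassium channel, was at 1.69 in C1 and 1.96 in C3, and Slc12a3, a salt transporter, was lowest in C1, at 20.6. The relation of the sum therefore rests mostly on Umod. Of the 6 tested markers, 1 was called, Cldn10, which was lower in BBMP samples, as were 7.68% of all genes or sequences. The summed proximal tubule level, led by other bright genes, had an r of -0.38 with Gclc (n = 6, exact p = 0.447, adjusted p = 0.733) and a rho of -0.2 (exact p = 0.714, adjusted p = 0.892). The other 8 sums gave r between -0.78 and 0.41, and none passed after adjustment.

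The genes most like Gclc were then listed by a rule made after its values were seen. It took the 10 named genes with the highest Pearson r over the 6 arrays among those whose log2 levels spanned at least 1. The highest was Slco1a1, an organic anion transporter of the proximal tubule, with an r of 0.997. Its levels were 4.09, 1.21 and 0.275 in C1 to C3 and 0.772, 2.97 and 2.23 in B1 to B3, so the highest level was 14.9 times the lowest. Agt, which encodes angiotensinogen, followed with an r of 0.994 and levels of 4.03, 1.35 and 0.49 in C1 to C3 and 0.999, 3.14 and 2.66 in B1 to B3. The other 8 were Slco1a3 (0.994), Slco1a5 (0.993), Defb29, Iqch, Mlc1 and Aspg (0.992 each), and Slco1a6 and Tyro3 (0.991 each). The 4 Slco1a genes have similar sequences, so their probes may share signal.

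In all, 120 of 31582 genes or sequences had an r above 0.95 with Gclc and 39 an r below -0.95. These values describe 6 arrays and carry no test.

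Because Slco1a1 marks the straight segment of the proximal tubule, 6 markers of that segment were also read, a list chosen after values were seen. The list includes Slco1a1 itself, which was found by its likeness to Gclc. Slc7a13, an amino acid transporter of this segment, was at 61.9, 14.4 and 8.26 in C1 to C3 and at 14.2, 42.3 and 30.8 in B1 to B3. Slc22a7, an organic anion transporter, was at 0.462, 0.0998 and 0.098 in C1 to C3 and at 0.115, 0.41 and 0.258 in B1 to B3. Both were highest in C1, B2 and B3, the 3 animals with the highest Gclc.

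Slc5a1, a glucose transporter of the segment, and Cyp7b1 did not share this order. Slc5a1 was at 0.396, 0.283 and 0.405 in C1 to C3 and at 0.35, 0.448 and 0.472 in B1 to B3, so C3, lowest in Gclc, was above C1, highest in Gclc. Cyp7b1, an oxysterol hydroxylase, ranged from 0.586 to 0.652 in control and from 0.492 to 0.55 in BBMP samples. Slc22a19 was not matched by name. The general proximal tubule markers varied to different degrees and did not share the order of Gclc as a sum. The phosphate transporter Slc34a1 lay between 349 and 362 in control and between 337 and 361 in BBMP samples. Kap was at 531, 262 and 539 in C1 to C3 and at 285, 364 and 417 in B1 to B3, and Slc5a12, a lactate transporter, ranged from 4.28 to 6.54 in control and from 3.49 to 3.94 in BBMP samples. The part of these markers, or of the place on the slide, in the spread of Gclc was not tested.

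**Figure D3:**
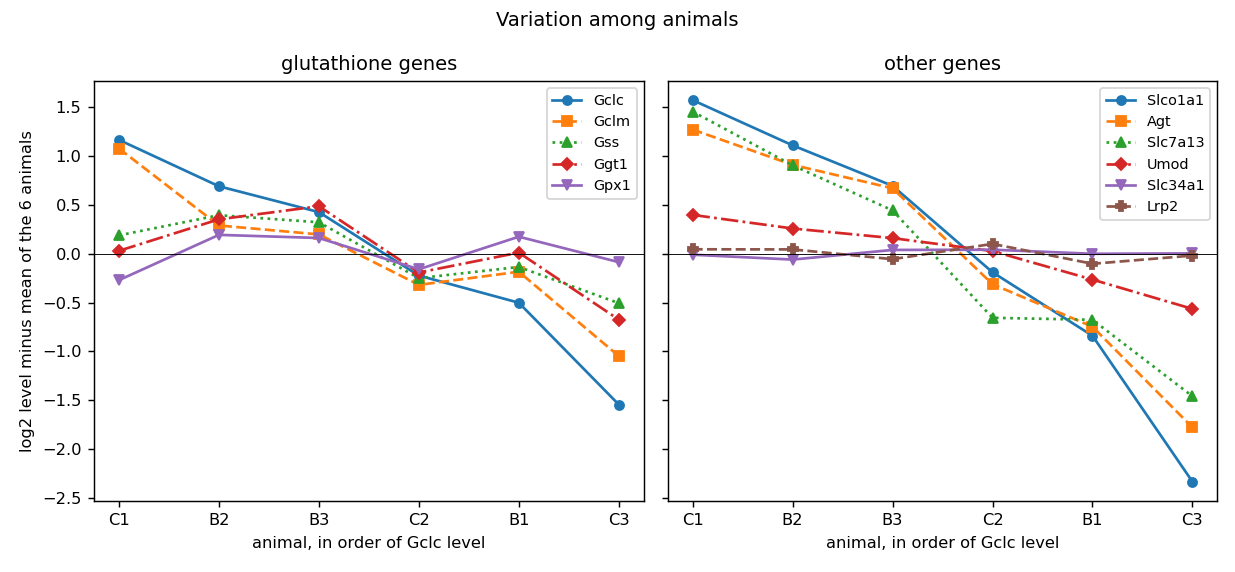
Log2 level minus the mean of the 6 animals, with the animals on the x axis in falling order of Gclc, for 5 of the 9 glutathione genes and for 6 other genes. Gclc, Gclm, Slco1a1, Agt, Slc7a13 and Umod are highest in C1 and lowest in C3, while Slc34a1 and Lrp2 stay near 0 and Gpx1 does not follow the order.

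The surrounding pathway was described with 6 lists of 62 genes in all, of which 57 were tested with 1 probe per gene. Of these, 7 were called higher and 3 lower, against 10.2% and 7.68% of all genes or sequences, and 23 had an unadjusted p under 0.05 (limma), against 36.6%. Their median difference was 0.05, like that of all genes. These calls depended on single animals: 5 genes were called higher without C3, 2 without C2, 1 without C1 or B3 and 0 without B1 or B2, and 2 were called lower without C3 and 0 without any other 1 animal. Over all probes, 3 were called without B1 and 4 without B2. The lists were chosen with earlier results of these data known.

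In the supply of cysteine and glutamate, 1 of 13 tested genes was called higher and none lower. The shares over all genes or sequences were 10.2% and 7.68%. Of the 13, 4 had an unadjusted p under 0.05 (limma), and the median was 0.03. The called gene was Slc1a1, a transporter that takes up glutamate and cysteine. Its levels were 6.21, 5.5 and 6.61 in C1 to C3 and 9.55, 10.7 and 10.9 in B1 to B3. The treated animals were all well above the controls, with a difference of 0.76 ± 0.10 (SE, limma adjusted p = 0.0128). Cbs, an enzyme of transsulfuration, was not called at its brightest probe but was at another probe (0.44, adjusted p = 0.0352 over all probes).

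Glutathione breakdown and mercapturate formation had 3 of 15 genes called higher and 1 lower, against 10.2% and 7.68% of all genes or sequences. The median was 0.22. Nat8, which acetylates cysteine conjugates in the last step of mercapturate formation, was at 57.0, 64.3 and 47.7 in C1 to C3 and at 81.2, 89.6 and 93.6 in B1 to B3. No control animal reached a treated one, and the difference was 0.65 ± 0.13 (SE, limma adjusted p = 0.0251, and 0.0587 without limma's moderation of the variances). Acy1, an aminoacylase that removes such acetyl groups, rose by 0.22 ± 0.05 (SE, adjusted p = 0.0387), from levels of 24.5 to 24.8 in control to 28.3 to 29.2 in BBMP samples, a call lost with median scaling, with quantile normalization and with no filter on dim probes (adjusted p = 0.0595).

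Chac1 and Chac2, which both degrade glutathione inside the cell, moved in opposite directions. Chac1 was at 0.439, 0.457 and 0.481 in C1 to C3 and at 0.584, 0.556 and 0.581 in B1 to B3, a difference of 0.32 ± 0.06 (SE, limma adjusted p = 0.0263). Chac2 was at 0.593, 0.504 and 0.561 in C1 to C3 and at 0.441, 0.443 and 0.408 in B1 to B3, a difference of -0.36 ± 0.08 (SE, limma adjusted p = 0.0379). Neither gene's groups overlapped. The Chac1 call was lost with normexp, and the Chac2 call with no filter on dim probes (adjusted p = 0.0563) and without moderation (0.063).

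Of the carriers linked to glutathione transport into mitochondria, all 3 that were tested were called higher, with a median of 0.39. Of all genes or sequences, 10.2% were called higher. Slc25a39, which is required for mitochondrial glutathione import, was at 13.6, 12.9 and 15.2 in C1 to C3 and at 18.8, 18.0 and 18.6 in B1 to B3. Its difference was 0.41 ± 0.08 (SE, limma adjusted p = 0.025), and its second probe gave 0.38 (adjusted p = 0.0277 over all probes). Slc25a10, the dicarboxylate carrier, rose by 0.39 ± 0.08 (SE, adjusted p = 0.0281), from levels of 29.0 to 33.5 in control to 38.5 to 42.6 in BBMP samples.
Slc25a11, the oxoglutarate carrier, rose by 0.25 ± 0.06 (SE, limma adjusted p = 0.0367), and a second probe by 0.31 (adjusted p = 0.0328 over all probes). Slc25a10 and Slc25a11 are carriers of dicarboxylates whose part in glutathione transport is debated. With 3 genes, the list is small, and the Slc25a11 call was lost with median scaling and with no filter on dim probes (adjusted p = 0.0575).

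Other glutathione peroxidases, glutaredoxins and glyoxalases had none of 10 tested genes called by limma, with 6 of the 10 at an unadjusted p under 0.05, against 36.6% of all genes or sequences, and a median of 0.25. The largest differences were 0.37 at Gpx6 (adjusted p = 0.088) and 0.35 at Glrx, a glutaredoxin (adjusted p = 0.0945), and neither passed. The groups of both genes did not overlap, with BBMP above control, as in 25.5% of all tested probes. Gpx6 was at 0.27 to 0.313 in control and 0.334 to 0.443 in BBMP samples, and Glrx at 2.53 to 3.18 and 3.27 to 3.94. Another tested Gpx6 probe gave 0.15 (limma adjusted p = 0.515 over all probes).

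Gpx1, Gpx3 and Gpx4 are selenoproteins, so the genes of selenoprotein synthesis and selenium supply were read beside them. None of 8 tested genes was called higher and 2 were called lower, against 10.2% and 7.68% of all genes or sequences. Of the 8, 3 had an unadjusted p under 0.05 (limma), and the median was -0.16. Selenop, the secreted protein that carries selenium between tissues, was at 193, 188 and 217 in C1 to C3 and at 145, 150 and 124 in B1 to B3. Every treated animal was below every control, with a difference of -0.52 ± 0.10 (SE, limma adjusted p = 0.0267, and 0.0561 without moderation). Sephs1, of the selenophosphate synthetase family, was at 16.4, 18.3 and 16.2 in C1 to C3 and at 12.8, 13.6 and 12.4 in B1 to B3. Its difference was -0.39 ± 0.08 (SE, limma adjusted p = 0.0254), and its 3 other probes gave -0.32, -0.38 and -0.43, of which -0.38 and -0.43 were called.

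Genes linked to lipid peroxidation and ferroptosis, a form of cell death that Gpx4 holds back, had none of 8 tested genes called by limma and none at an unadjusted p under 0.05, with a median of -0.08. The largest differences were -0.26 at Ncoa4, which guides ferritin to breakdown, with an interval from -0.56 to 0.05 (adjusted p = 0.19), and -0.23 at Ptgs2, the inducible cyclooxygenase, with an interval from -0.96 to 0.51 (adjusted p = 0.621).

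**Figure D4:**
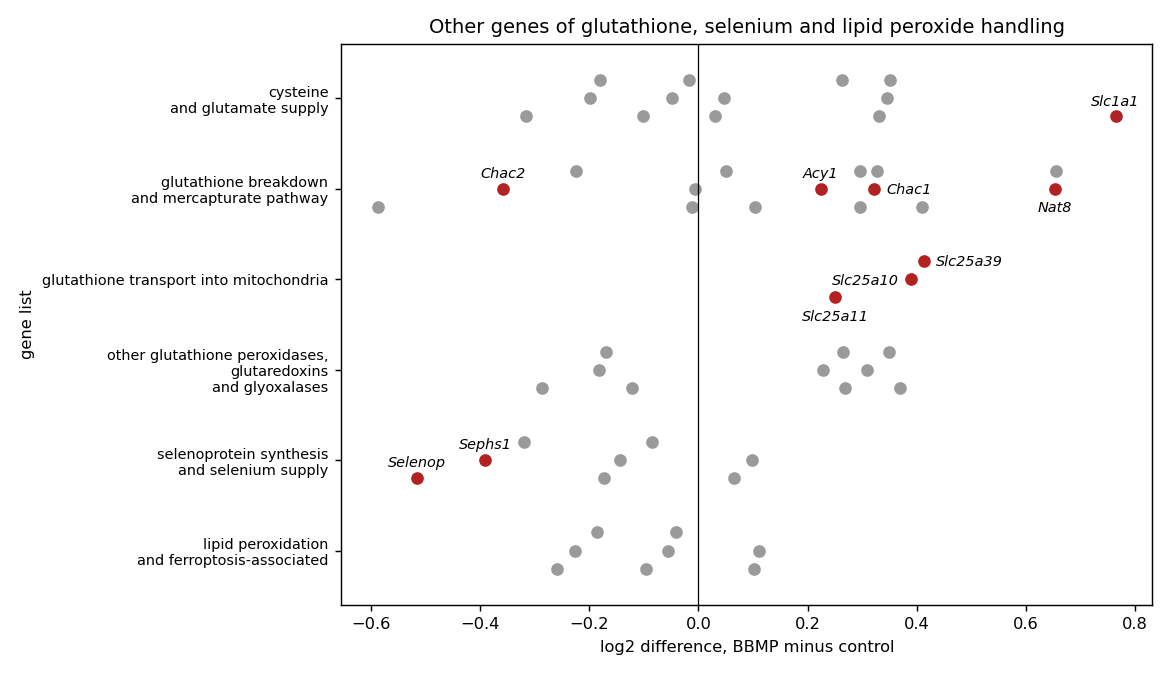
Log2 difference, BBMP minus control, of each of the 57 tested genes in 6 lists around the glutathione pathway (1 probe per gene, 3 animals per group), with genes called at a limma adjusted p under 0.05 in red and named, and the vertical offset within a list used only to separate points. All 3 mitochondrial carriers lie to the right of 0, Slc1a1 lies farthest right at 0.76, and both called genes of selenium supply lie to the left.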

How the data were processed

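Cortex RNA of 6 rats was labelled with Cy3 and hybridised to 1 one-colour Agilent array per animal, per the labels' protocols. Per the file headers, scanner files were made with Agilent Feature Extraction 10.7.1.1 (version 10.7 in the submitters' processing notes) and hold linear intensity, as a background-subtracted processed signal and as raw median signal with local background. Per the file headers, flags scored 0 or 1 mark spots that are well above background, saturated or outliers. The authors' deposited table of the series holds a ratio per probe and array, which equals the processed signal over the array's 75th percentile, and was used as an alternative.

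The value tested was log2 of the processed signal over the 75th percentile of its array, with limma 3.58.1 in R 4.3.3 (lmFit, eBayes, two-sided, no covariates). Left out were 84 ERCC spike-in probes and 10 probes with an outlier flag. A probe had to be well above background in every animal of at least 1 group. For lists, the probe of each gene with the highest mean stood for the gene. Genes were named through RefSeq transcripts of GRCr8, for names only, and 12077 named genes were tested. The array was designed on an older build, and coordinates are printed only for RefSeq promoters of GRCr8. Correlations and plots used Python 3.11.15. With 3 arrays per group, their number limits the precision.

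The 9 genes, the lists and the rule for naming genes were chosen with earlier results of these data known. All 9 genes were named with all their probes, and from each pathway list the called members or, where none was called, the 2 with the largest difference. Other genes were named after their values were seen. 1 gene of the lists is not reported here. Alternatives covered background correction, scaling, the authors' table, the filter on dim probes, moderation, ERCC probes, replicate and slide-row blocks, array weights, the choice of probe and leaving out each array.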

Additional observations from a re-analysis of the deposited data

How the results depend on the processing

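With 3 animals per group and treatment confounded with slide and scan, calls depended on single arrays. Probes of the 9 genes called higher (1) became 3 with normexp, which added A_42_P805300 of Gpx1 and A_64_P129796 of Gpx4. With trend and robust moderation they became 2, which added A_42_P805300. They became 0 with the replicate block, with slide row as a block and within slide row 1, and were 0 to 1 when single arrays were left out, as was the count of genes called higher. Probes and genes called lower (0) became 1 with normexp, which was Slc7a11. Pathway genes called higher (7) became 12 with normexp, 13 with trend and robust moderation, 0 with either block or row 1 alone, and 0 to 5 without single arrays. Pathway genes called lower (3) became 8 with normexp, 5 with median scaling, 5 with trend and robust moderation, 2 with no filter on dim probes, 1 without moderation, 0 with either block or row 1 alone, and 0 to 2 without single arrays.

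Same-numbered animals did not deviate together (r of -0.13, -0.09 and -0.08), so the numbers were not taken to pair the animals. With the replicate number as a block, the Gpx1 difference at A_44_P123315 stayed 0.35 with an adjusted p of 0.091 (limma). With slide row as a block it was 0.26 (adjusted p = 0.183). Both block fits and row 1 alone called no probe on the array at all, against 17.8% otherwise.

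Some uncalled differences changed sign. With normexp, Gclm became -0.11, Slc7a11 -0.34 and Gpx4 at A_64_P112467 -0.015. With median scaling Slc7a11 became -0.00065 and this Gpx4 probe -0.011, and with quantile normalization Slc7a11 became -0.071. With slide row as a block or row 1 alone, Slc7a11 became -0.32 and this Gpx4 probe -0.021. Leaving out single arrays, Gclc ranged from -0.27 (without C3) to 1.09 (without C1) and from -0.42 to 1.12 at its second probe, Gclm from -0.28 (without C3) to 0.78 (without C1), Slc7a11 from -0.052 (without C1) to 0.27 (without C3), and Gsr from -0.15 (without B1) to 0.0016 (without C3). Without B2 Gsr was 0.00073, and without B1 Slc7a11 was -0.045. Cyclic loess, the authors' table, ERCC probes kept, other detection filters for the 9 genes and array weights changed no call of the 9 genes. The median of all probes moved from 0.05 to -0.06 with normexp, and the share of called probes that were higher went from 58.1% to 36.9%, with 36.1% for median scaling, 46.8% for cyclic loess and 49.6% for quantile normalization. The causes were not tested.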
